A study of Mus musculus with 24 samples.

Results

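Cnr1, Htr3a, Chrna7, Gpr176, Prlhr and Cntfr are 6 receptor genes of neurotransmitters, neuropeptides and a neurotrophic cytokine, out of 25755 genes listed for the sorted dermal papilla (DP) of mice. They were selected on their large anagen differences in RNA between mice that lack Hdac1 and Hdac2 in the DP and control mice, so their P24 and P28 values are given as a description and carry no test. The 24 libraries hold 3 control and 3 double mutant (dM1/2) samples at each of 4 ages, P20 (first telogen), P24 (early anagen), P28 (mid anagen) and P60 (second telogen). The dM1/2 mice are Cor-cre/+; Hdac1Flox/Flox; Hdac2Flox/Flox, and every control also carries Cor-cre/+. The controls are Hdac1Flox/+; Hdac2Flox/+, Hdac1Flox/+; Hdac2+/+, Hdac1+/+; Hdac2Flox/+, Hdac1Flox/+; Hdac2Flox/Flox or Hdac1Flox/Flox; Hdac2Flox/+, and the labels do not say which of these a given library has. Corin-Cre deletes the floxed alleles in the DP and not in the rest of the skin, and the YFP reporter that it switches on was used to sort the cells. By the methods of the study, P20 skin came from females, anagen skin from males and second telogen skin from both sexes, so stage, sex and sequencing depth cannot be told apart between telogen and anagen. The P20 and P60 libraries also differ in age, sex and depth, which cannot be told apart. The labels do not give the sex of a library, and whether sex differs between the genotypes at P60 was not tested.

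The DP is a small group of fibroblast-like cells enclosed by the hair bulb that signals to the overlying epithelium and sets the hair cycle. Its cells are not neurons, yet skin is densely innervated, and many receptors first described in the nervous system are also transcribed in follicle cells. Cnr1 encodes the CB1 cannabinoid receptor, which responds to lipid messengers made by diacylglycerol lipases. Htr3a and Chrna7 each encode a subunit of a ligand-gated ion channel, opened by serotonin and by acetylcholine. Gpr176 encodes an orphan receptor that lowers cyclic AMP through Gz and is known from the circadian clock, and Prlhr encodes the receptor of prolactin-releasing peptide. Cntfr encodes the ligand-binding subunit of the receptor for ciliary neurotrophic factor, which signals with gp130 (Il6st) and Lifr.

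The 6 genes lie at separate loci of GRCm38. Cnr1 is at chr4:33924593-33948831 on the plus strand, and the other members are on the minus strand, with Cntfr at chr4:41657498-41697089, Htr3a at chr9:48899213-48911099, Chrna7 at chr7:63098692-63212569, Gpr176 at chr2:118277110-118373419 and Prlhr at chr19:60466732-60468304. Prlhr has a single annotated exon. Gpr176 shares 133 exonic bases with the predicted transcript Gm29232 on its own strand, and reads there could belong to either. To show what lies in front of genes that were lower and a gene that was higher in dM1/2, the bases upstream of their starts are shown for the 4 genes with a RefSeq window (GRCm38.p6) outside the annotated gene body. Capitals mark the GC box GGGCGG, found in 32.7% of 32851 mouse promoter windows of 250 bases, and the E-box CACGTG, found in 6.02%, each searched on both strands.
Cnr1, chr4:33924014-33924263, plus strand: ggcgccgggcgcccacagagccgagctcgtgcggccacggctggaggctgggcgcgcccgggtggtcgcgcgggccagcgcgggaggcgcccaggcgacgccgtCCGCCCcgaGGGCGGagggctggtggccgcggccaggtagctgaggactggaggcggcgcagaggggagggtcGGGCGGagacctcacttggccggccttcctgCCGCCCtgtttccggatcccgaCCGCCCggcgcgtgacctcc
Chrna7, chr7:63212570-63212776, minus strand: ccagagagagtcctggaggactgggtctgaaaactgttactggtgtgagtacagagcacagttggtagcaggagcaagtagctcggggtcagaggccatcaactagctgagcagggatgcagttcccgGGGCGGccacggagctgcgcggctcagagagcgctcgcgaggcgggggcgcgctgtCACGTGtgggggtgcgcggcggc
Gpr176, chr2:118373420-118373669, minus strand: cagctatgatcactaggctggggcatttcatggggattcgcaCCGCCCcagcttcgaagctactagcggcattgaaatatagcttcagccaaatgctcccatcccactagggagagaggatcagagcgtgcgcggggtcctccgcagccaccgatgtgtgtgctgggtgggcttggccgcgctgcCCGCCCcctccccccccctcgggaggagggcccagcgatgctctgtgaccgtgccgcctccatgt
Prlhr, chr19:60468305-60468554, minus strand: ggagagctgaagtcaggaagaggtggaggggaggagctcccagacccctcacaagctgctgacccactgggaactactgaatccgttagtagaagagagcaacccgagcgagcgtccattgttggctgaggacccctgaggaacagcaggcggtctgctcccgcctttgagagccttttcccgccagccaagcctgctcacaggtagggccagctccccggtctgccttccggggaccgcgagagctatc

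These windows differ in base composition. The Cnr1 window is 79.2% G and C with 36 CpG dinucleotides and 5 GC boxes, against medians of 52.4% and 6 CpG over all windows. The full Chrna7 window, of which 43 bases inside the gene are left out, is 67.2% G and C and holds 25 CpG, 1 GC box and 1 E-box. The Gpr176 window is 64.0% G and C with 16 CpG and 2 GC boxes. The window of Prlhr, the member that is higher in dM1/2, is 62.0% G and C with 11 CpG and no match to either motif. Cnr1 has 3 windows in all, and those not shown, which lie partly or wholly inside the gene, are 68.8% and 49.2% G and C. Neither of these holds a GC box, and the first of them holds an E-box. The other motifs searched, also on both strands, have no match in the 4 windows. They were the TATA box (letters TATAAA, in 12.4% of all windows), the CCAAT box (33.9%), the CRE (letters TGACGTCA, 1.55%), the LEF/TCF motif (letters CTTTGAT, 3.21%) and the left part (letters TTCAGCACC, 0.301%) and right part (letters GGACAGCG, 0.992%) of the RE1 element.

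Values are normalized reads, that is, reads scaled by each library's size factor. The P20 libraries had 11635062 to 13369732 reads on genes, the P60 libraries 8171944 to 9724000, and the anagen libraries 35469841 to 49331751 (P24) and 37171260 to 48331795 (P28). Where a gene is at 0, as many as 3 reads could have been missed by counting error alone, which is 5.55 to 8.604 normalized reads in P20 libraries, 6.30 to 7.57 in P60 libraries, 1.015 to 1.51 in P24 libraries and 1.14 to 1.92 in P28 libraries. Hdac1 was lower in all 3 dM1/2 libraries at P24, with 209, 188 and 116 normalized reads against 675, 668 and 668 in controls. In telogen, where the members are tested, Hdac1 was not called by limma at P20 (-0.72, adjusted p = 0.122, with 216 to 370 in dM1/2 and 375 to 511 in controls) or at P60 (-0.25, adjusted p = 0.986), and at P60 the 318 to 371 of dM1/2 overlapped the 360 to 506 of controls. At P28 the library labelled P28 control 3 held 105 Hdac1 normalized reads, below the 126 to 190 of the dM1/2 libraries, while controls 1 and 2 held 214 and 529, so P28 results are also given without it. Hdac1 was not called by limma at P28 (-0.58, adjusted p = 0.454). It was called without P28 control 3 (-1.13, adjusted p = 0.0426), but that library was singled out by its Hdac1 value. Hdac2 was not called at any age (limma log2 differences from -0.01 to 0.27). At P24 every dM1/2 library (1157 to 1282) was above every control (925 to 1069) for Hdac2. Reads from exons outside the floxed parts can still be counted, and their part in the Hdac1 and Hdac2 values was not tested. For protein, the study reports immunostaining in the anagen of the first cycle, before the ages of these libraries. It found Hdac1 and Hdac2 in few mutant DP cells, so deletion was efficient but not complete. All 18 DP markers had reads in every group. Bulk RNA cannot tell fewer cells of a type from less RNA per cell.

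**Figure D1:**
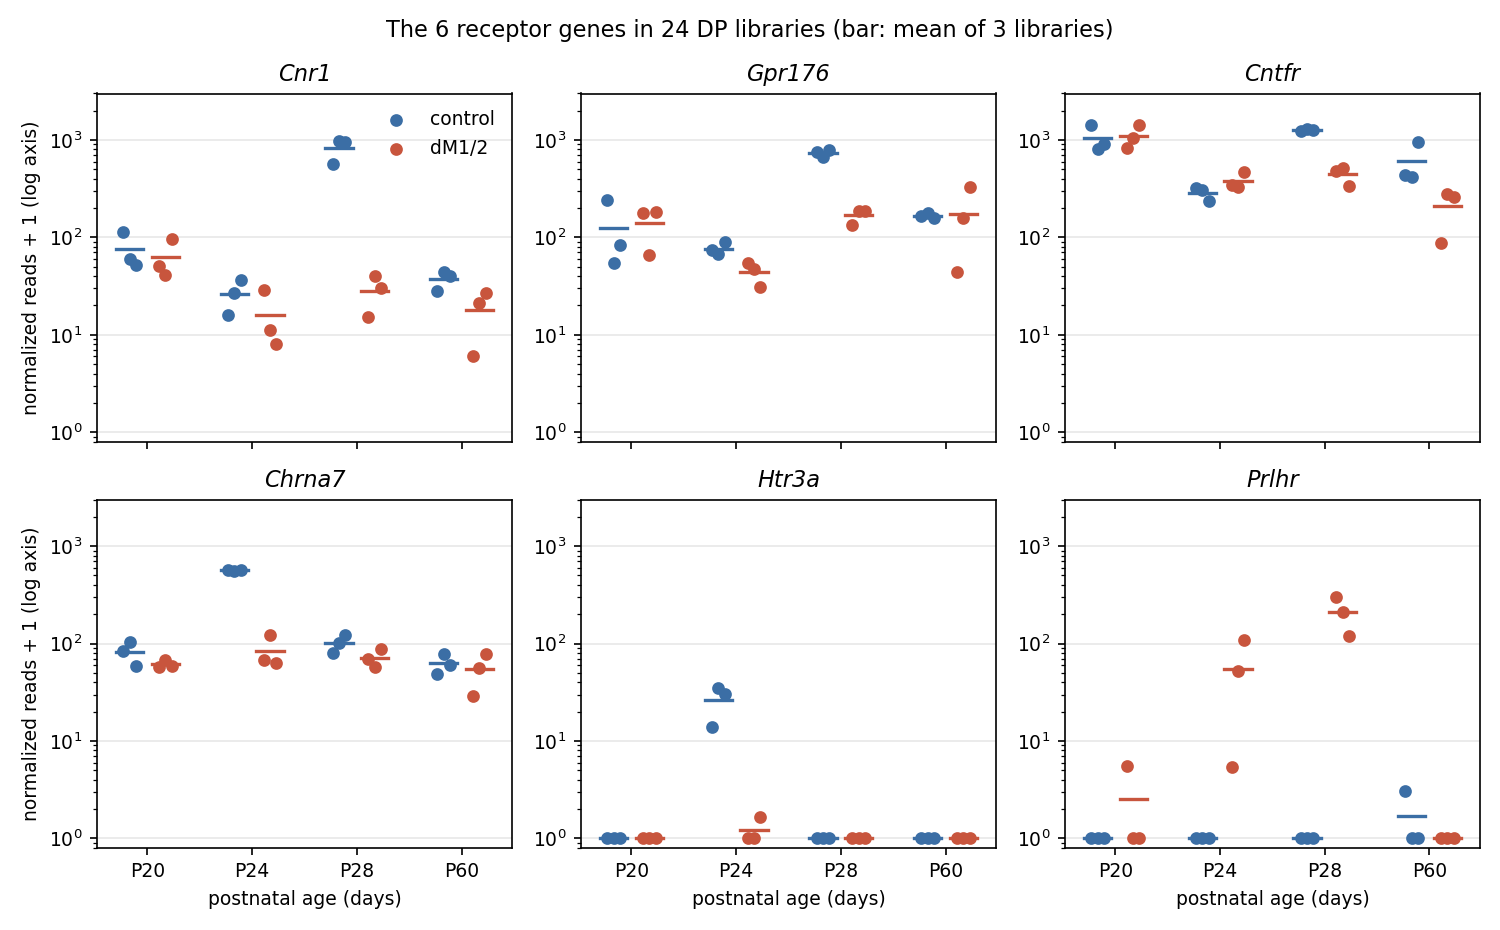
Normalized reads + 1 (log axis) of the 6 genes in each library at P20, P24, P28 and P60, with controls in blue, dM1/2 in red and a bar at the mean of 3 libraries. Cnr1, Gpr176 and Cntfr stand highest in P28 controls, Chrna7 and Htr3a in P24 controls, and Prlhr in P28 dM1/2.

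Cnr1 was a mid-anagen gene of the control DP that stayed low in dM1/2. The P28 controls held 561, 981 and 944 normalized reads. The P28 dM1/2 libraries held 14.1, 39.0 and 29.3. Every P28 control was far above every P28 dM1/2 library. The mean was 30.2-fold lower in dM1/2 (829 ± 233 against 27.5 ± 12.6, SD, n = 3), a log2 difference of -4.93 (standard error 0.49) that became -4.82 without P28 control 3. At P24, controls held 15.1, 26.1 and 35.3 normalized reads and dM1/2 held 27.6, 10.3 and 7.10, so the groups overlapped. Between P24 and P28 the control mean was 32.5-fold higher at the later age, and the dM1/2 mean 1.83-fold higher with overlapping libraries. In controls the P60 mean was 22.7-fold below that of P28. Ordered by level, P28 controls (829) came before P20 controls (74.5), P20 dM1/2 (61.4), P60 controls (36.5), P28 dM1/2 (27.5), P24 controls (25.5), P60 dM1/2 (17.02) and P24 dM1/2 (15). Past the first, neighbours in this order overlapped.

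In controls Gpr176 shared the P28 peak with Cnr1, while in dM1/2 its P28 libraries overlapped those of P20 and P60. Its P28 controls held 759, 671 and 796 normalized reads, and the P28 dM1/2 libraries held 134, 187 and 183. The mean was 4.41-fold lower in dM1/2 (742 ± 64.2 against 168 ± 29.5), with a log2 difference of -2.15 (standard error 0.17), and -2.09 without P28 control 3. At P24 the controls held 72.7, 66.3 and 87.7 and the dM1/2 libraries 53.1, 46.8 and 30.1. The groups did not overlap at either age, and the P24 mean was 1.74-fold lower in dM1/2. The P28 mean was above the P24 mean in both genotypes, by 9.82-fold in controls and 3.89-fold in dM1/2, with no overlap between ages in either. Below the P28 controls the order was P60 dM1/2 (175), P28 dM1/2 (168), P60 controls (166), P20 dM1/2 (141), P20 controls (125), P24 controls (75.6) and P24 dM1/2 (43.3). The last pair was separated, and from P60 dM1/2 down to P24 controls each neighbour overlapped the next.

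Cntfr differed in opposite directions at the 2 anagen ages. At P24 the controls held 321, 308 and 233 normalized reads and the dM1/2 libraries 343, 332 and 466. Every P24 dM1/2 library was above every control, by 1.32-fold in the mean (log2 difference 0.40, standard error 0.21). At P28 the controls held 1224, 1296 and 1265 and the dM1/2 libraries 476, 515 and 337. There every dM1/2 library was below every control, by 2.85-fold in the mean (log2 difference -1.53, standard error 0.19, and -1.53 without P28 control 3). The control mean was 4.39-fold higher at P28 than at P24, and the dM1/2 mean 1.16-fold higher with overlap. Both genotypes had lower Cntfr at P24 than at P20, by 3.65-fold in controls and 2.90-fold in dM1/2. Levels ran from P28 controls (1262) through P20 dM1/2 (1102), P20 controls (1050), P60 controls (606), P28 dM1/2 (443), P24 dM1/2 (380) and P24 controls (287) to P60 dM1/2 (207), and only P24 dM1/2 and P24 controls did not overlap as neighbours.

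Chrna7 was high in a single group. The P24 controls held 575, 559 and 565 normalized reads, with a standard deviation of 7.89 around 567. The P24 dM1/2 libraries held 66.5, 122 and 62.6, and their mean was 6.77-fold lower (log2 difference -2.81, standard error 0.30). At P28 the controls held 79.2, 99.3 and 121 and the dM1/2 libraries 69.1, 56.6 and 86.3, which overlapped. The P28 mean was 1.41-fold lower in dM1/2, with a log2 difference of -0.49 (standard error 0.25) that became -0.34 without P28 control 3. In controls Chrna7 was 6.99-fold higher at P24 than at P20 and 5.68-fold lower again at P28. In dM1/2 the same steps were 1.39-fold and 1.18-fold, with overlapping libraries. Below P24 controls, the other group means ran from 99.8 in P28 controls to 53.6 in P60 dM1/2, and all neighbours in that order overlapped.

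Htr3a was detected only at P24. The P24 controls held 33, 68 and 74 reads (12.8, 34.1 and 29.4 normalized reads), and the P24 dM1/2 libraries held 0, 0 and 2 reads (0, 0 and 0.676 normalized reads). The pooled level was 102.8-fold lower in dM1/2, with a 95% counting interval of 28.0 to 855 that covers counting error only. The 18 libraries of the other ages held no Htr3a read. The control level at P24 was therefore at least 17.5-fold above P28 and, at the lower depth of telogen, at least 3.08-fold above P20. Its partner subunit gene Htr3b had no read in any P24 library.

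Prlhr was the member that was higher in dM1/2. No P20, P24 or P28 control held a read. The P24 dM1/2 libraries held 12, 135 and 317 reads (4.36, 51.4 and 107 normalized reads), and the P28 dM1/2 libraries held 706, 490 and 295 (301, 210.0 and 118). The level was at least 42.3-fold higher in dM1/2 at P24 and at least 144-fold higher at P28, where the log2 difference was 7.62 (standard error 0.39) both with and without P28 control 3. The P24 dM1/2 libraries were widely spread, and leaving out 1 library at a time gave log2 differences from 4.07 to 6.24 at P24 and from 7.31 to 7.98 at P28. The dM1/2 mean was 3.86-fold higher at P28 than at P24, with no overlap. In telogen, 1 P20 dM1/2 library held 2 reads, 1 P60 control held 1 read and the remaining 10 libraries held none, which at P60 is at least 28.4-fold below P28 dM1/2. At P24 the dM1/2 libraries with more Prlhr had less Hdac1 (209, 188 and 116 normalized reads of Hdac1 beside 4.36, 51.4 and 107 of Prlhr). At P28 the order was the reverse (190, 149 and 126 beside 301, 210.0 and 118). Prlh, which encodes the peptide ligand, had a read in 1 anagen library only.

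**Figure D2:**
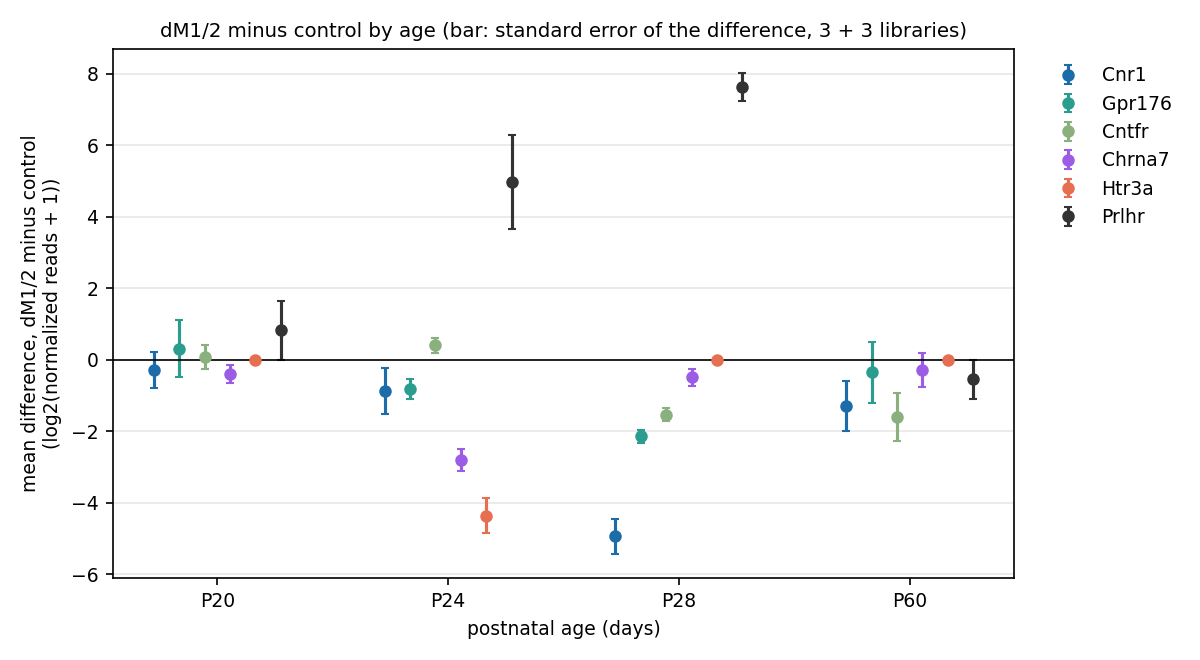
Difference of the group means, dM1/2 minus control, on log2(normalized reads + 1) at each age, with the standard error of the difference over 3 and 3 libraries. Anagen differences range from -4.93 (Cnr1 at P28) to 7.62 (Prlhr at P28), and Cntfr lies above 0 at P24 and below 0 at P28 and P60.

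Across all genes tested with limma, 26.6% were called between dM1/2 and control at P24 (14.8% higher and 11.8% lower) and 35.5% at P28 (20.0% higher and 15.6% lower, and 40.9% in all without P28 control 3). The libraries of the 2 genotypes did not overlap for 44.8% of genes at P24 and 51.3% at P28. At P24 the genotypes did not overlap for 5 members (all but Cnr1), and at P28 for 4 (all but Chrna7 and Htr3a), which is how these genes came to be picked and is no result about them. Compared per exonic kilobase, the order of the members in P28 controls was Cntfr (454 normalized reads per kb), Gpr176 (190), Cnr1 (129) and Chrna7 (22.2), and 89.8%, 74.3%, 63.7% and 22.0% of the 13806 genes with at least 10 normalized reads in that group lay below them. In P24 controls Chrna7 (126 per kb) and Cntfr (103) came before Gpr176 (19.4), Htr3a (12.2) and Cnr1 (3.96). In P28 dM1/2 Prlhr reached 133 per kb, which is next to Cntfr (159) and above Gpr176 (43.2), Chrna7 (15.7) and Cnr1 (4.26).

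**Figure D3:**
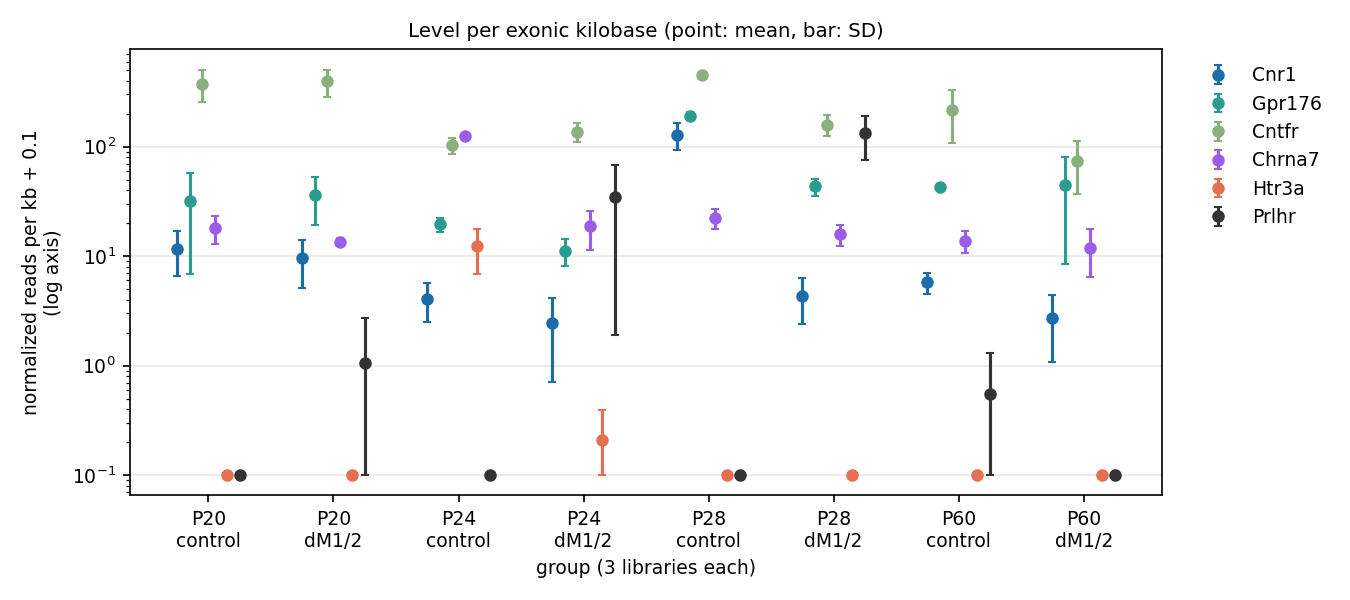
Normalized reads per exonic kilobase + 0.1 (log axis) of the 6 genes in the 8 groups, as mean and SD of 3 libraries, with bars that would pass 0 ending there. Cntfr has the highest mean of the 6 in every group except P24 controls, where Chrna7 (126) is above it (103).

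Telogen libraries took no part in picking the genes, so the members can be tested there. At P20, 0.433% of all genes were called between dM1/2 and control, and none of the 4 testable members was (Cnr1, Chrna7, Gpr176 and Cntfr, with 0 by limma, 0 at an unadjusted p under 0.05, 0 by edgeR and 0 by DESeq2). Their limma log2 differences were -0.29 for Cnr1 (standard error 0.40, adjusted p = 0.718), -0.39 for Chrna7 (0.28, adjusted p = 0.468), 0.31 for Gpr176 (0.55, adjusted p = 0.783) and 0.08 for Cntfr (0.25, adjusted p = 0.881). The genotypes overlapped for all 4. Cnr1 held 112, 59.5 and 51.6 normalized reads in P20 controls and 50.03, 39.8 and 94.3 in P20 dM1/2. Gpr176 varied most within a group, from 54.1 to 238 in P20 controls.

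At P60, 0.00% of genes were called by limma, with 525 genes at an unadjusted p under 0.05, 0 called by edgeR and 26 by DESeq2. Of the 4 members, 1 (Cntfr) had an unadjusted limma p under 0.05, and 0 were called by limma, by edgeR or by DESeq2. Cntfr held 441, 417 and 959 normalized reads in P60 controls and 85.8, 279 and 257 in P60 dM1/2. All dM1/2 libraries were below all controls, by 2.92-fold in the mean, but the limma log2 difference of -1.61 (standard error 0.50) did not pass the adjustment (adjusted p = 0.986, and 0.106 to 0.9999 over the alternatives). Without P60 dM1/2 replicate 1, which holds the lowest value, it was -1.07. Cnr1 was also separated, with 27.3, 42.9 and 39.2 normalized reads in P60 controls and 5.05, 20.1 and 25.9 in P60 dM1/2 (log2 difference -1.29, standard error 0.63, limma adjusted p = 0.986). Without P60 dM1/2 replicate 1 this became -0.63. The differences of Chrna7 (-0.29) and Gpr176 (-0.35, but 0.0462 by edgeR, with means of 166 in controls and 175 in dM1/2) lay within the spread of their libraries.

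Between the 2 telogens, which differ in age, sex and depth together, 12.6% of genes were called in controls and 6.32% in dM1/2. Cntfr was the 1 member called, in dM1/2, where it fell from 819, 1058 and 1430 normalized reads at P20 to 85.8, 279 and 257 at P60. This is a limma log2 difference of -2.54 (standard error 0.44, adjusted p = 0.0202) and 5.32-fold in the mean. The limma call was lost without P20 dM1/2 replicate 1 (adjusted p = 0.0649), replicate 2 (0.0813), replicate 3 (0.0921) or P60 dM1/2 replicate 2 (0.0572), with log2 differences from -2.85 to -2.001 over the libraries left out. In controls the Cntfr difference was -0.86 (standard error 0.32, limma adjusted p = 0.107), and -1.24 with an adjusted p of 0.0208 without P60 control replicate 3. Whether the genotypes differ in this change was not tested. The summed level of the 18 DP markers was also lower at P60 in dM1/2, with 75590 to 102100 normalized reads at P20 and 25420 to 59840 at P60, beside 56950 to 72700 and 49140 to 74350 in controls, and its part in the Cntfr change was not tested. Cnr1 was lower at P60 in both genotypes with no overlap, by -0.95 in controls (limma adjusted p = 0.123) and by -1.95 in dM1/2 (adjusted p = 0.114), and the latter was called by DESeq2 (adjusted p = 0.0394). Gpr176 had a log2 difference of 0.69 in controls (limma adjusted p = 0.331), which without P20 control replicate 1 became 1.30 with an adjusted p of 0.0121. Chrna7 differed by -0.38 in controls and -0.28 in dM1/2, neither called.

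The partners of Cnr1 were examined as an endocannabinoid list of 14 further genes, of which 12 could be tested. At P24, 1 was higher and 3 were lower in dM1/2, close to the 26.6% called among all genes. At P28, where 15.6% of all genes were lower, 7 were lower and 0 higher by limma, with 0 higher also at an unadjusted p under 0.05, by edgeR and by DESeq2, and with a median log2 difference of -0.56 against 0.00 over all genes. Without P28 control 3 these counts were the same (7 and 0). Dagla, a diacylglycerol lipase that makes the ligand 2-arachidonoylglycerol, held 311, 336 and 260 normalized reads in P28 controls and 106, 89.99 and 114 in P28 dM1/2 (limma log2 difference -1.54, standard error 0.18, adjusted p = 0.00121). Mgll, which breaks this ligand down, went from 779 ± 71.4 to 272 ± 64.8 (-1.54, adjusted p = 0.00156). Daglb, the other lipase, was lower at P28 by -0.99 (adjusted p = 0.00253). At P28 the receptor, both synthetic enzymes and the degrading enzyme were thus all lower in dM1/2. The enzymes of anandamide differed at P24, where Faah, which degrades it, fell from 66.9 to 18.0 (-1.79, adjusted p = 0.0151, and 0.0539 without P24 dM1/2 replicate 3) and Napepld, which takes part in its synthesis, rose from 67.0 to 167 (1.32, adjusted p = 0.00466). At P28 their differences were 0.05 and 0.18. Dagla at P24 was lower by -0.96 (adjusted p = 0.0159), a call lost without P24 control replicate 2 (0.0611) or P24 dM1/2 replicate 2 (0.0526). Cnrip1, which encodes a protein that binds the CB1 tail, was lower by -0.47 at P24 (adjusted p = 0.0342) and by -0.54 at P28 (0.0250). These small differences lost their call at P24 without control replicate 1 or 2 or any 1 dM1/2 library (adjusted p from 0.0738 to 0.140), and at P28 without control replicate 1 or any 1 dM1/2 library (from 0.0538 to 0.101).

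For Chrna7, the acetylcholine list had 13 testable genes besides it at P24, with 5 higher and 2 lower in dM1/2, and 14 at P28, with 7 higher and 2 lower (7 and 3 without P28 control 3). Among all genes 14.8% were higher and 11.8% lower at P24, and 20.0% and 15.6% at P28. Chrna4, which forms the common neuronal nicotinic receptor with Chrnb2, held 38.7, 67.8 and 92.5 normalized reads in P24 controls and 761, 629 and 743 in P24 dM1/2 (limma log2 difference 3.48, adjusted p = 0.00103). At P28 it went from 23.9 ± 8.31 to 528 ± 44.7 (4.47, adjusted p = 0.000253). Chrnb2 rose by 1.71 at P24 (adjusted p = 0.0117, and 0.0507 without P24 dM1/2 replicate 1) and by 2.87 at P28 (0.000846). Both subunits of that receptor were therefore higher at both ages. The muscarinic receptor gene Chrm4 rose from 7.18 to 146 at P24 (4.23, adjusted p = 0.00368) and from 3.41 to 311 at P28 (6.22, adjusted p = 0.000227). Slc5a7, the choline transporter, fell from 1097 to 253 at P24 (-2.10, adjusted p = 0.00134) and from 392 to 82.4 at P28 (-2.04, adjusted p = 0.0155). Its P28 call was lost without P28 control replicate 1 (0.05001), P28 dM1/2 replicate 2 (0.0632) or replicate 3 (0.0556). Ric3, a chaperone that helps nicotinic receptors assemble, was higher at P28 by 1.44 (adjusted p = 0.00716), and its difference at P24 was 0.40 (adjusted p = 0.320).

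Of the serotonin list besides Htr3a, 6 genes could be tested at P24, with 1 higher and 1 lower, and 5 at P28, with 1 higher and 0 lower by limma (0 also at an unadjusted p under 0.05, by edgeR and by DESeq2). Of the RFamide peptide list besides Prlhr, 3 could be tested at P24 and 4 at P28, with 1 and 3 lower and 0 higher by limma, edgeR, DESeq2 and unadjusted p. Without P28 control 3 the calls of both lists at P28 had the same counts, with 4 genes tested in each. Beside them, 14.8% of all genes were higher and 11.8% lower at P24, and 20.0% and 15.6% at P28. With so few genes tested, these counts are no result about either list. Kiss1r, the kisspeptin receptor of the same peptide family, fell from 65.8 to 33.1 at P24 (-0.97, limma adjusted p = 0.0282) and from 96.6 to 35.9 at P28 (-1.36, adjusted p = 0.0105), in the direction opposite to Prlhr. The P24 call of Kiss1r was lost without control replicate 2 or 3 or any 1 dM1/2 library (adjusted p from 0.0506 to 0.116).

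The cytokine list around Cntfr had 17 testable genes at P24 and 18 at P28. At P24, 1 was lower and 0 higher by limma (2 higher at an unadjusted p under 0.05, 0 by edgeR and 1 by DESeq2), and at P28, 4 were lower and 0 higher (1 higher at an unadjusted p under 0.05, 0 by edgeR and 0 by DESeq2), with 7 lower without P28 control 3. The shares called among all genes were 26.6% at P24 and 35.5% at P28, larger than those of this list. Il6st, which encodes gp130, held 18270, 18260 and 17670 normalized reads in P24 controls and 11440, 12370 and 10320 in P24 dM1/2 (limma log2 difference -0.67, adjusted p = 0.0154). At P28 it was lower by -0.92 (adjusted p = 0.0170). Lifr, the third chain of the CNTF receptor, fell from 2863 to 1586 at P28 (-0.83, adjusted p = 0.0141). The 3 chains were thus all lower in P28 dM1/2, whereas at P24 Il6st was lower, Lifr was not called (-0.44) and Cntfr was higher. Each of these calls was lost when some 1 library was left out. For Il6st at P24 these were control replicate 2 (adjusted p = 0.0633) and dM1/2 replicate 1 (0.0552), and at P28 control replicate 1 (0.0651) and dM1/2 replicates 1 (0.0532) and 2 (0.0754). For Lifr at P28 they were control replicate 1 (0.0530) and dM1/2 replicates 2 (0.0562) and 3 (0.0581). The ligand gene Clcf1 and the feedback inhibitor gene Socs3 were not called at either age, with log2 differences from 0.15 to 0.52.

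The Gz list around Gpr176 had 8 testable genes, with 1 higher at P24 and 3 higher at P28 in dM1/2 (4 without P28 control 3) and 0 lower at both ages by limma, edgeR, DESeq2 and unadjusted p. Among all genes 26.6% were called at P24 and 35.5% at P28, so these counts are no result about the list. Gnaz, which encodes the G protein that Gpr176 couples to, was higher at P24 by 0.63 (79.4 to 124, limma adjusted p = 0.0447), a call lost without any 1 of the 6 libraries (adjusted p from 0.0515 to 0.121). At P28 its difference was 0.62 (adjusted p = 0.182). Rgs16, a regulator of G protein signalling known from the circadian clock, had limma log2 differences of -0.27 at P24 (adjusted p = 0.242) and 1.06 at P28 (adjusted p = 0.167, and 0.0145 with all 24 libraries fitted together).

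**Figure D4:**
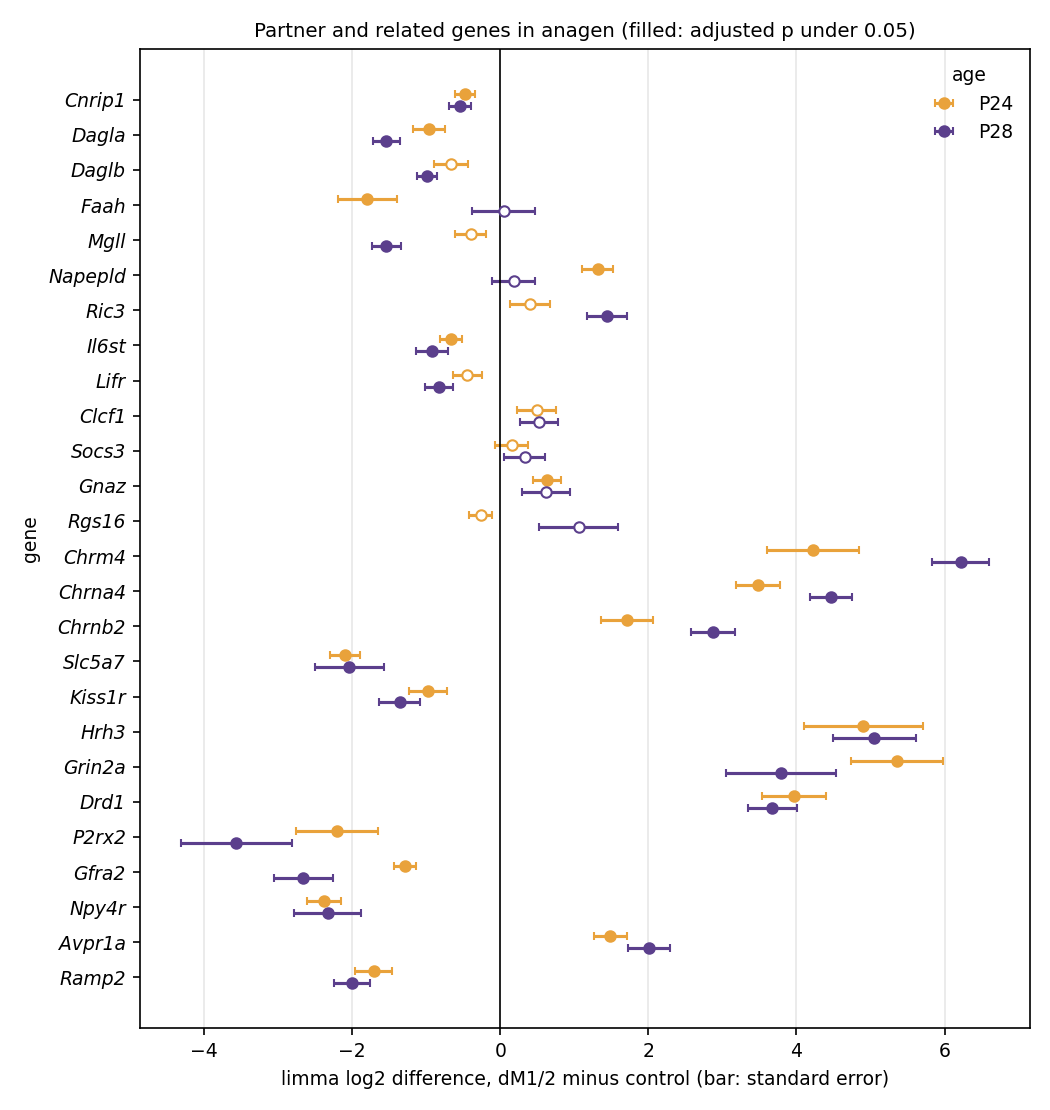
Limma log2 difference with its standard error, dM1/2 minus control, for the named partner and related genes at P24 (orange) and P28 (purple), with filled points where the adjusted p was under 0.05. Dagla, Daglb and Mgll lie between -1.54 and -0.99 at P28, while Chrna4, Chrnb2, Chrm4, Hrh3, Grin2a and Drd1 lie between 1.71 and 6.22 at both ages.

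Receptors outside these systems were also called in both directions. So were genes at large, with 14.8% higher and 11.8% lower at P24, and 20.0% and 15.6% at P28. Among other neurotransmitter receptors, 8 of 46 tested were higher and 7 lower at P24, and 7 of 49 higher and 7 lower at P28 (9 and 8 without P28 control 3). Among other peptide and neurotrophic receptors, 2 of 48 were higher and 14 lower at P24, and 7 of 45 higher and 13 lower at P28 (11 and 16 of 46 without P28 control 3). Grin2a, an NMDA receptor subunit, rose from 43.5 to 1344 normalized reads at P24 (limma log2 difference 5.36, adjusted p = 0.00184) and from 48.7 to 457 at P28 (3.79, adjusted p = 0.00827). The histamine receptor gene Hrh3 (4.91 and 5.05) and the dopamine receptor gene Drd1 (3.97 and 3.67) were likewise called higher at P24 and P28. Hrh3 resembled Prlhr in its near absence from controls, with 0, 0 and 2.78 normalized reads at P24 and 0, 0 and 1.14 at P28. Lower at both ages were Npy4r, a pancreatic polypeptide receptor (-2.37 and -2.33), Gfra2, the neurturin receptor (-1.28 and -2.66), Ramp2, the partner of the calcitonin receptor-like receptor (-1.71 and -1.999), and P2rx2, an ATP-gated channel (-2.20 and -3.56). The P24 call of P2rx2 was lost without control replicate 2 (limma adjusted p = 0.104) or any 1 dM1/2 library (from 0.0545 to 0.0679). The vasopressin receptor gene Avpr1a was higher at both ages (1.49 and 2.01). In no named gene was a P28 call lost without P28 control 3. Over all lists together, 18 of 153 genes were higher and 29 lower at P24, and 25 of 155 higher and 36 lower at P28, beside the 26.6% and 35.5% called among all genes. Taken in both directions, these totals lie near those shares, so they are no result about the listed genes as a set. By direction, more listed genes were lower than higher at both ages, whereas more of all genes were higher than lower. The median absolute log2 difference was 0.68 at P24 and 0.83 at P28, beside 0.37 and 0.48 over all genes. Neither contrast was tested, and the lists were chosen with earlier results known.

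Markers of several cell types moved with some of these differences. The summed level of 10 neuron markers was 59.9 to 144 normalized reads in P28 controls and 289 to 716 in P28 dM1/2, the group where Prlhr was highest, and at P24 it was 144 to 225 in controls and 208 to 243 in dM1/2. Most of the P28 sum was Stmn2 (27.7 to 87.1 in controls and 197 to 594 in dM1/2), and Elavl4 had no read in P28 controls. The neuronal genes Nefm (0.758 to 2.17 in P28 controls and 24 to 32.1 in P28 dM1/2), Snap25 (0.435 to 2.27 and 9.63 to 15.9), Nefl (0 to 0.870 and 5.97 to 12.8) and Prph (0.870 to 2.27 and 7.63 to 12) were low in level and did not overlap between the genotypes. Among all genes tested at P28, 51.3% did not overlap. Syt1 (median 10.4 in P28 controls and 5.62 in P28 dM1/2), Uchl1 (18.27 and 13.25) and Elavl3 (1.74 and 0.857) had lower medians in dM1/2, with overlapping libraries. Among the 4 neuron markers tested at P28, 2 were higher by limma (3 by edgeR), beside 20.0% of all genes by limma. The summed level of 10 Schwann cell markers was 595 to 1108 in P24 controls and 283 to 475 in P24 dM1/2, in the direction of Chrna7 and Htr3a. Its S100b part was 426 to 681 in controls and 138 to 299 in dM1/2, and its Cdh19 part 44.1 to 135 and 13.1 to 30.9. Sox10, the defining gene, was at 1.16 to 2.51 in controls and 0.364 to 0.762 in dM1/2. These values are a few reads each, as 3 reads make 1.015 to 1.51 normalized reads at P24, and Sox10 was too low to be tested. At P24, 2 of 7 tested Schwann cell markers were lower and 1 higher, beside 11.8% and 14.8% of all genes. DP markers summed to 394800 to 481600 in P24 controls and 214500 to 253500 in P24 dM1/2, with 9 of 18 lower and 2 higher, and to 196200 to 539400 in P28 controls and 171900 to 185800 in P28 dM1/2, with 5 lower and 5 higher. At P28, 15.6% of all genes were lower and 20.0% higher. The muscle and sheath sum was 6332 to 11130 in P28 controls and 2716 to 6367 in P28 dM1/2, and keratinocyte markers summed to between 113 and 807 over all groups. In P60 dM1/2 replicate 1, which held the lowest Cnr1, Chrna7, Gpr176 and Cntfr of its group, the endothelial sum and the melanocyte sum were 6059 and 2787, against group medians of 2281 and 1456. A single gene made up most of each sum in that library, with Tek at 5112 and Mitf at 2658. The part of these markers in the results was not tested.

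**Figure D5:**
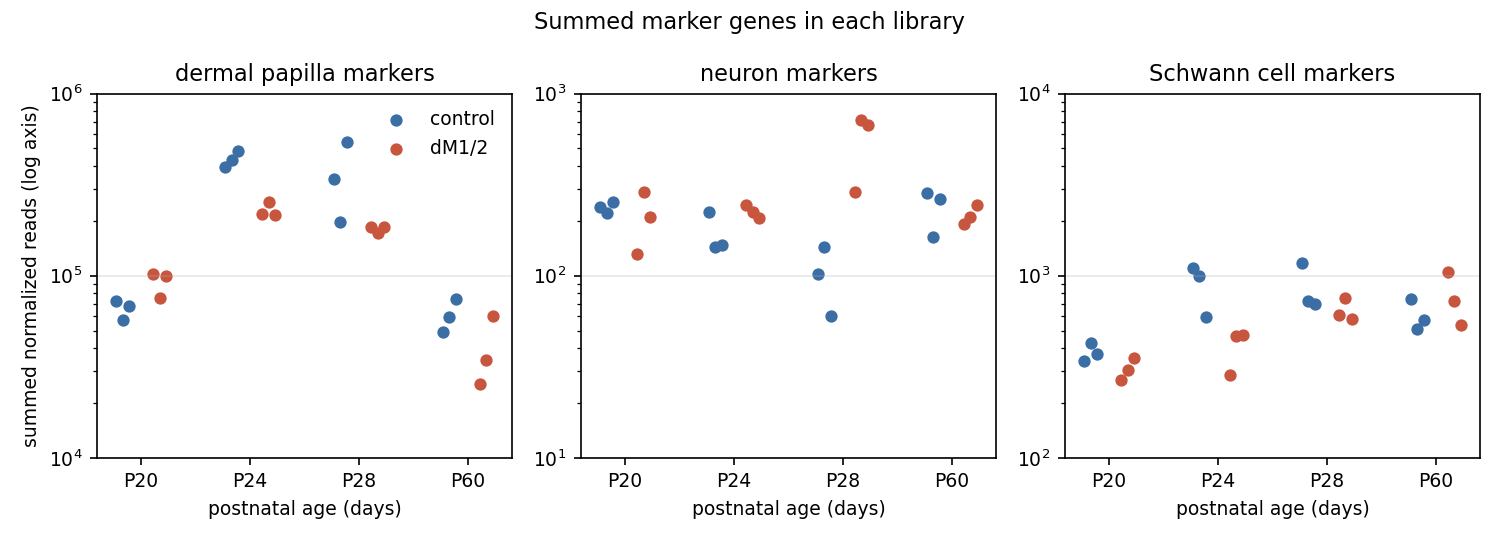
Summed normalized reads (log axis) of 18 DP markers, 10 neuron markers and 10 Schwann cell markers in each library, with controls in blue and dM1/2 in red. The neuron sum of P28 dM1/2 (289 to 716) lies above P28 controls (59.9 to 144), and the Schwann cell sum of P24 dM1/2 (283 to 475) lies below P24 controls (595 to 1108).

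The members fall into 3 patterns over the 24 libraries, given here by Pearson's r on log2(normalized reads + 1) as a description, since the libraries share ages, genotypes and depth. Cnr1 followed Gpr176 (r = 0.82) and Cntfr (0.75), while Gpr176 and Cntfr were at 0.51. Htr3a followed Chrna7 (0.90). Prlhr had negative values with each of the other 5, from -0.38 to -0.17. Of 13403 genes searched, each averaging 10 or more normalized reads, those most like Cnr1 were Rgs2 (0.89), a regulator of G protein signalling, and B4galnt1 (0.87), a ganglioside synthase. Rgs2 was also nearest to Cntfr (0.83), followed by the acute-phase protein gene Orm1 (0.82), and its group means were 2844 normalized reads in P28 controls and 817 in P28 dM1/2. Nearest to Gpr176 were Brinp2 (0.87) and Apoe (0.84), the apolipoprotein gene with means of 21870 in P28 controls and 5696 in P28 dM1/2. Chrna7 was nearest to Rhbdf2 (0.88), and to Lrrn3 (0.88), whose means were 2167 in P24 controls and 436 in P24 dM1/2. For Htr3a the nearest genes were Chrna7 and the casein gene Csn1s1 (0.86), which had means of 133 in P24 controls and 6.11 in P24 dM1/2. Prlhr was nearest to Tlx1 (0.94) and Sall4 (0.94), both transcription factor genes, with means of 108 and 79.0 in P28 dM1/2 and at most 0.769 in any control group, so that most of the 24 points of these pairs lie at or near 0.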

How the data were processed

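RNA of YFP-labelled DP cells, sorted from the skin of single mice, was depleted of ribosomal RNA and sequenced from single ends with a strand-marking kit. The study's methods name Trimmomatic, TopHat2 (mm10), HTSeq on Ensembl GRCm38.p4 and DESeq2. The HTSeq strand setting is not given in the sources used here. The deposited values are a signal, gene counts that the authors divided by DESeq2 size factors. Whole reads were recovered for 100% of values (tolerance 1e-06 of the value), and no column of the authors' fold changes or p-values was used.

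For this report, limma 3.58.1 (R 4.3.3, trend, two-sided, Benjamini-Hochberg, threshold 0.05) was run on log2(normalized reads + 1) over the 6 libraries of each comparison, for genes that averaged 10 or more normalized reads over them, so fold changes of low genes are understated. The count tests edgeR 4.0.16 and DESeq2 1.42.0 on the recovered reads, pseudocount 10, no filter, TMM scaling, all 24 libraries, a replicate block and leaving out each library were the alternatives. Counts at P28 without P28 control 3 were added after seeing the data. The calculations were tested on simulated data. Same-numbered control and dM1/2 samples did not deviate together in all pairs, so the numbers were not taken as pairs. Python 3.11.15 (pandas 2.3.3, numpy 2.4.6, matplotlib 3.10.9) made the tables and plots. Loci and exon lengths come from GENCODE M21 (25508 of 25755 identifiers matched).

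The members and lists were chosen with earlier results of these data known. The genes named are the members, Hdac1, Hdac2, a set of partner genes, up to 4 genes per list with the largest P28 difference among those called in the same direction at P24 and P28, and the 2 genes most correlated with each member, leaving out predicted models and pseudogenes. Some genes within this rule are not reported here. Marker genes are named from the marker lists. Of 260 listed genes, 258 were found (all but Galr3 and Tmem35a). No value was imputed.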

Additional observations from a re-analysis of the deposited data

Results flagged for a closer look

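Cntfr was separated between the genotypes in opposite directions at different ages. Every dM1/2 library was above every control at P24 (difference of means on the log2 scale 0.399), and every dM1/2 library was below every control at P28 (-1.53) and at P60 (-1.61). The difference between the ages was not tested, and the P24 and P28 values were used to pick the gene. Of 13806 genes tested at both anagen ages, 56 (0.406%) were separated in opposite directions at P24 and P28, and 32 of these were higher at P24 and lower at P28, as Cntfr was.

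Rgs16 was above all controls in every P28 dM1/2 library (1.06) and below all controls in every P20 dM1/2 library (-0.368). Neither difference was called by limma in the libraries of its own age, the P28 difference was called by limma with all 24 libraries fitted together (adjusted p = 0.0145), and the difference between the ages was not tested. The P28 controls held 368, 325 and 83.4 normalized reads, the lowest in P28 control 3, the library with low Hdac1, and the dM1/2 libraries held 449 to 457. Groups of 3 libraries were too small for a rule that flags single samples that stand apart. P28 control 3 and P60 dM1/2 replicate 1 are named for values seen in the data, not by such a rule.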

How the results depend on the processing

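The number of genes called depended on the tool and on single libraries. At P20 it was 60 by limma, 668 by DESeq2, 23 with all 24 libraries fitted together and 439 with the replicate block, and 0 to 1530 leaving out 1 library (0 without P20 dM1/2 replicate 3, 1530 without P20 control replicate 1). At P24 it was 3735, 2366 with the block and 2057 to 4012 leaving out 1 library, and at P28 it was 5018 and 3043 to 5788. At P60 it was 0 by limma (525 genes at an unadjusted p under 0.05, 0 by edgeR), 1 with pseudocount 10, 26 by DESeq2, 19 with all 24 libraries, 6 with the block and 0 to 2 leaving out 1 library. Between P60 and P20 it was 1746 in controls (923 with the block, 527 to 2796 leaving out 1 library) and 892 in dM1/2 (1837 by DESeq2, 2176 with all 24 libraries, 100 to 1772 leaving out 1 library).

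Signs turned only for differences that were not called. By tool or pseudocount these were Hdac2 at P20 (TMM 0.001153), Faah at P28 (edgeR -0.0128, DESeq2 -0.0332) and Gpr176 at P60 (edgeR 0.0462, DESeq2 0.0558). Leaving out 1 library, the log2 differences between dM1/2 and control ranged from -0.642 to 0.0481 for Cnr1, -0.146 to 0.914 for Gpr176, -0.127 to 0.327 for Cntfr and -0.0628 to 0.0464 for Hdac2 at P20. At P28 they ranged from -1.13 to 0.0288 for Hdac1, -0.216 to 0.270 for Faah and -0.0885 to 0.434 for Napepld, and at P60 from -0.610 to 0.115 for Chrna7, -1.01 to 0.436 for Gpr176 and -0.0178 to 0.156 for Hdac2. Between P60 and P20 in dM1/2 they ranged from -0.601 to 0.125 for Chrna7 and from -0.629 to 0.817 for Gpr176. The cause was not tested. The replicate block ended the anagen calls of Cnrip1 at P24 (adjusted p = 0.102) and P28 (0.0820), Il6st (0.0618 and 0.0607), Gnaz at P24 (0.114), Kiss1r at P24 (0.0908) and P2rx2 at P24 (0.0511). Fitting all 24 libraries ended the P24 calls of Cnrip1 (0.0976), Gnaz (0.171) and P2rx2 (0.0801) and made a P28 call of Rgs16 (0.0145) and a call of Cnr1 between P60 and P20 in dM1/2 (0.0230). Without the filter the P24 calls of Gnaz (0.0831) and Kiss1r (0.0596) were lost, DESeq2 called Daglb at P24 (0.0224), and the block made a P20 call of Hdac1 (0.0445). Hdac1 was also called by limma at P20 without P20 control replicate 1 (-0.87, adjusted p = 0.0413). Depth limits Htr3a and Prlhr, which could not be tested in telogen, and the fitted log2 values of both depend on the pseudocount.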

Other observations

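Of 146 listed genes besides the members that were tested at both anagen ages, 1 (0.685%) was separated between the genotypes in opposite directions at P24 and P28, beside 0.406% of all genes. It was Maoa, which breaks down serotonin and other amines, named after its values were seen. Its means were 2377 normalized reads in controls and 1884 in dM1/2 at P24, and 732 and 1297 at P28.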
